A study of Mus musculus with 8 samples.

Results

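Levels of 10 genes of the integrated stress response and of serine synthesis were examined in bulk RNA sequencing of mouse myocardium. The members were chosen by gene symbol: the transcription factors Atf4, Atf5 and Ddit3, the pseudokinase Trib3, the asparagine enzyme Asns, the serine synthesis enzymes Phgdh and Psat1, the mitochondrial one-carbon enzymes Shmt2 and Mthfd2, and the hormone Fgf21. They are 10 of 33249 genes in the table, and 9 of them, all except Fgf21, are among the 14028 genes that reached a mean FPKM (fragments per kilobase of transcript, scaled to library size) of 0.5 and were tested. On GRCm38 the deposited table places Atf4 (ENSMUSG00000042406) at chr15:80255184-80257541 on the plus strand, Atf5 (ENSMUSG00000038539) at chr7:44812256-44816658 on the minus strand, Ddit3 (ENSMUSG00000025408) at chr10:127290774-127296288 on the plus strand, Trib3 (ENSMUSG00000032715) at chr2:152337422-152344032 on the minus strand and Asns (ENSMUSG00000029752) at chr6:7675169-7693254 on the minus strand. It places Phgdh (ENSMUSG00000053398) at chr3:98313170-98339990 on the minus strand, Psat1 (ENSMUSG00000024640) at chr19:15904678-15947337 on the minus strand, Shmt2 (ENSMUSG00000025403) at chr10:127517123-127522444 on the minus strand, Mthfd2 (ENSMUSG00000005667) at chr6:83305691-83317606 on the minus strand and Fgf21 (ENSMUSG00000030827) at chr7:45613886-45615490 on the minus strand.

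The study asked how loss of the mechanosensitive cation channel Piezo1 in cardiomyocytes alters the heart after myocardial infarction (MI). There were 8 libraries in 4 groups of 2. The fl/fl mice carry loxP-flanked Piezo1 alleles and lack the Cre transgene, and are labelled WT. The CKO mice, labelled Piezo1 knockout, carry the same alleles and Myh6-MerCreMer, a tamoxifen-dependent Cre that the Myh6 promoter drives in cardiomyocytes only. Deletion was induced with tamoxifen at 4 weeks of age. Surgery followed at 8 weeks, with permanent ligation of the left anterior descending artery in fl/fl-MI and CKO-MI and an operation without ligation in fl/fl-Sham and CKO-Sham. The MI hearts were taken at day 42, and the labels give no day for the sham hearts. Total counts were 73821747 to 88117573 per library, or 18455437 to 22029393 read pairs at about 4 counts per pair. Genes encoded in mitochondrial DNA took 43.1% to 46.4% of the counts in sham libraries and 19.9% to 24.2% in MI libraries. Piezo1 itself stood at 72.2 and 82.0 CPM (counts scaled to a common library size) in fl/fl-Sham, 76.7 and 88.3 in CKO-Sham, 53.5 and 64.8 in fl/fl-MI and 56.3 and 64.6 in CKO-MI. The CKO labels thus did not go with a lower level of the gene in whole myocardium, where other cell types also hold Piezo1 RNA. The study reported the deletion at the protein level, by western blot of isolated adult cardiomyocytes, which RNA of whole tissue does not measure. Nothing in the labels ties the samples of a group to separate animals beyond their numbers, and the p-values then measure the spread between these samples.

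The integrated stress response starts with kinases that phosphorylate the translation factor eIF2, which slows most protein synthesis while translation of the Atf4 messenger rises. The ATF4 protein then binds composite C/EBP-ATF elements and drives genes for amino acid transport, asparagine and serine synthesis and the loading of transfer RNAs, and it also drives Ddit3 (CHOP) and Trib3, which moderate or end the response. In heart and muscle the response is known for following mitochondrial damage, when Phgdh, Psat1, Shmt2 and Mthfd2 feed one-carbon units into the mitochondrial folate cycle and Fgf21 is secreted. ATF4 is controlled to a large part in translation, so that messenger levels are not a readout of the protein.

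Sequence from the RefSeq promoter table of GRCm38.p6 is shown first, because many of these genes are known as ATF4 targets. All 10 members have an entry there. The core of the C/EBP-ATF element, TGATGNAA, was searched on both strands in the 250 bases before each start and was found in 3.45% of 32851 promoters. Among the members it was present for Asns, 23 bases before the start, and for Fgf21, 139 bases before the start on the opposite strand. The windows below read 5′ to 3′ along the gene's strand, with the core in capitals, and include 4 genes of related lists whose levels are given later. Asns lies at chr6:7693210-7693248, Fgf21 at chr7:45615606-45615645, Atf3 at chr1:191183420-191183459, Pycr1 at chr11:120643828-120643867 and Aars at chr8:111033714-111033753, of which Asns, Fgf21, Atf3 and Pycr1 are on the minus strand and Aars is on the plus strand. Chac1 lies at chr2:119351033-119351072 on the plus strand.
Asns: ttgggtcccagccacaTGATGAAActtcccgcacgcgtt
Fgf21: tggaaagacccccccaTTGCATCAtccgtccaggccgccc
Atf3: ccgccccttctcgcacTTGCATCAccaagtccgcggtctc
Chac1: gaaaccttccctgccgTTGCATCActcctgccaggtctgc
Pycr1: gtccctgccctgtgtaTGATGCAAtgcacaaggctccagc
Aars: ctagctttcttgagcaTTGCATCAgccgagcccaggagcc

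The promoters of Mthfd2 and Phgdh are shown because these are the members with the clearest change after MI. Neither holds TGATGNAA in this window, and no member holds TGACGTCA, a letter string present in 1.55% of promoters. Both hold CCAAT boxes, marked in capitals on either strand: 3 for Mthfd2, at chr6:83317605-83317854 on the minus strand, and 2 for Phgdh, at chr3:98339970-98340219 on the minus strand. At least 3 such boxes occurred in 2.79%, at least 2 in 10.1% and at least 1 in 33.8% of all promoters of this length. CCAAT was not particular to these genes, since 6 of the 10 members, or 6 of their 12 promoters, held it. Among them were Atf4 and Psat1 with 2 boxes each in a promoter, Atf5 and Ddit3, none of which passed the test after MI. This motif was added after the values were seen, and a match is a description of the letters only.
Mthfd2: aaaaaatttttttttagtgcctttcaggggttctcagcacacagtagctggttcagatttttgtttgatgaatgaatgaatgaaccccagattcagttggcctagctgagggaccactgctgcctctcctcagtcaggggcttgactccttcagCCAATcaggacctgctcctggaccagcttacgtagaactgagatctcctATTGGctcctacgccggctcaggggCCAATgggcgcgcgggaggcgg
Phgdh: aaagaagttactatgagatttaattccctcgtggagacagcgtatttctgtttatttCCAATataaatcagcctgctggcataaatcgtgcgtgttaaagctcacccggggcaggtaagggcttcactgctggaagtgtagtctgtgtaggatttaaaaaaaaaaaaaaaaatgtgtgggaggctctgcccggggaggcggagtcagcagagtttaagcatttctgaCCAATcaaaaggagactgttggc

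Per length, the transcription factors were the most abundant members. The mean FPKM over the 8 libraries was 32.8 for Atf4 and 25.2 for Atf5. Ddit3 and Shmt2 followed at 9.08 and 9.02 and lay close together. The mean FPKM was 2.38 for Trib3, 2.26 for Phgdh, 2.02 for Asns, 1.81 for Psat1 and 1.60 for Mthfd2. Fgf21 was at 0.063. In each of the 4 groups the mean FPKM of Atf4, Atf5, Ddit3 and Shmt2 was above that of the other 6 members.

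**Figure D1:**
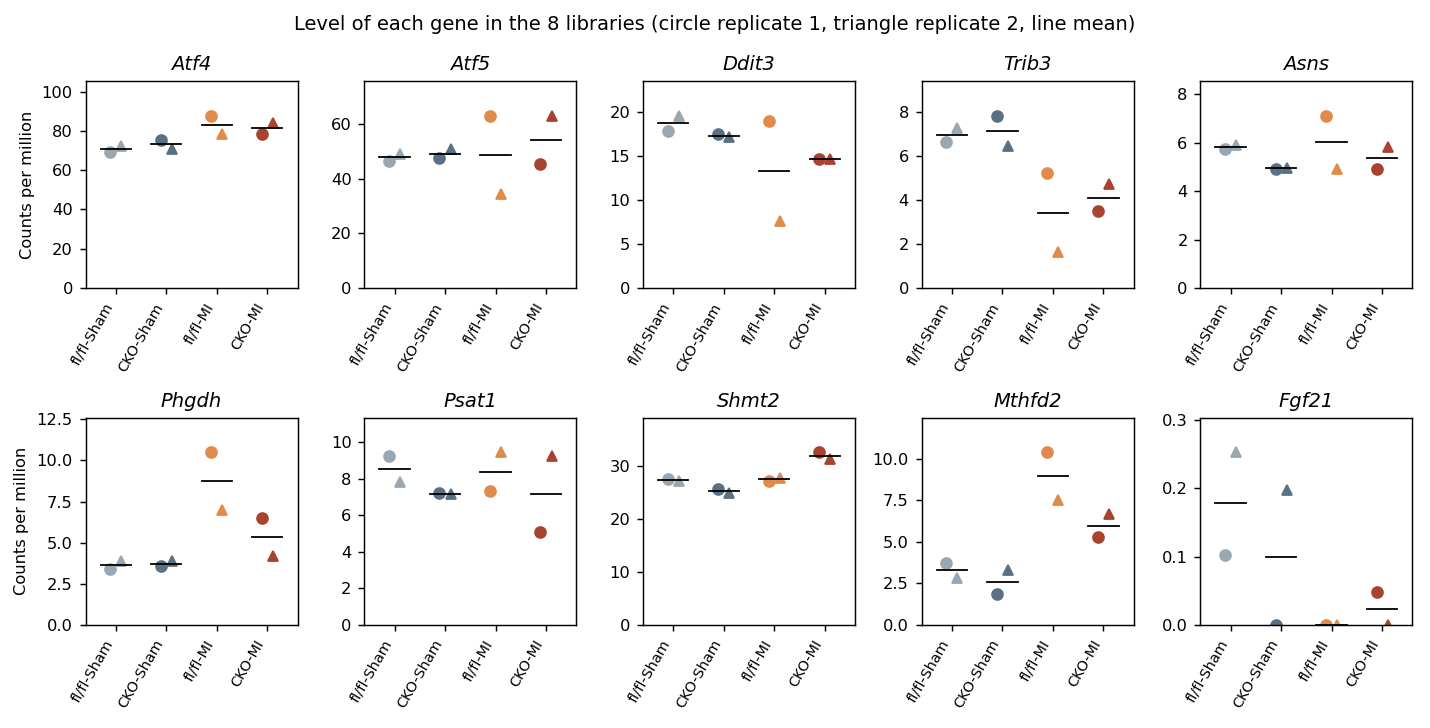
CPM (counts scaled to library size with TMM factors, vertical axes from 0) of the 10 genes in the 4 groups, with circles for replicate 1, triangles for replicate 2 and lines for the mean of 2 libraries. All 4 MI libraries lie above all 4 sham libraries for Atf4, Phgdh and Mthfd2 and below them for Trib3, while Fgf21 stays at or near 0.

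By edgeR, MI raised Mthfd2 and Phgdh and left the other 7 tested members short of the threshold. The comparison of 4 MI with 4 sham libraries over both genotypes gave a log2 fold change of 1.33 (SE 0.25) for Mthfd2 and 0.90 (SE 0.22) for Phgdh, by edgeR's quasi-likelihood test with adjusted p of 0.00654 and 0.0166. These are 2 of 9 members, both called higher, against 40.4% of all tested genes called in either direction and 22.0% called higher, and the count is no result about the members as a group. None of the 9 was called lower, against 18.3% of all tested genes. The median log2 fold change of all tested genes was 0.03 on this scale.

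Mthfd2 encodes the mitochondrial enzyme that oxidises the one-carbon unit carried by folate. Its level was 3.75 and 2.82 CPM in fl/fl-Sham, 1.88 and 3.29 in CKO-Sham, 10.4 and 7.52 in fl/fl-MI and 5.28 and 6.66 in CKO-MI. The lowest MI library, at 5.28, was above the highest sham library, at 3.75. The gene rose 2.72-fold in fl/fl hearts (log2 1.44, SE 0.35, adjusted p = 0.0335) and 2.31-fold in CKO hearts (log2 1.21, SE 0.35, adjusted p = 0.0453). These comparisons share no library, but both take their spread from 1 model over all 8 libraries and are not independent tests. In fl/fl hearts 2 of 9 members were called, both higher, where the call took 18.5% of all tested genes (10.1% up, 8.45% down). For CKO hearts the count was 1 of 9, where the call took 24.7% of all tested genes (12.8% up, 11.9% down). Over both genotypes the call held in each of the 8 fits without 1 library, at 1.15 to 1.56 on the log2 scale. Within fl/fl hearts the log2 fold change was 1.17 to 1.67 in these fits, and within CKO hearts it was 0.86 to 1.67. The call was lost in 5 of the 8 fits within fl/fl hearts and in 6 within CKO hearts. Most of those fits also called a smaller share of all tested genes than the fit with all libraries. The counting region of Mthfd2 overlaps Gm43890 on the same strand, and its deposited end differs from that in the GENCODE M21 annotation.

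Phgdh catalyses the first and committed step of serine synthesis. It stood at 3.38 and 3.88 CPM in fl/fl-Sham, 3.56 and 3.85 in CKO-Sham, 10.5 and 7.01 in fl/fl-MI and 6.50 and 4.21 in CKO-MI. The sham libraries lay within a narrow range, and CKO-MI replicate 2 was barely above them. The rise was 2.42-fold in fl/fl hearts (log2 1.27, SE 0.31, adjusted p = 0.034), and in CKO hearts the log2 fold change was 0.53 (SE 0.31, adjusted p = 0.242). The test of the difference between these 2 effects gave −0.74 (SE 0.44, adjusted p = 0.678), which did not pass. Over both genotypes the call was lost without any 1 of the sham libraries or CKO-MI replicate 1, with log2 fold changes of 0.70 to 0.95. Those fits also called a smaller share of all tested genes than the fit with all libraries.

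Psat1, which follows Phgdh in the same pathway, did not move with it. Its level was 9.21 and 7.80 CPM in fl/fl-Sham, 7.19 and 7.17 in CKO-Sham, 7.32 and 9.44 in fl/fl-MI and 5.06 and 9.26 in CKO-MI, and the MI libraries spanned the whole sham range. The log2 fold change over both genotypes was −0.01 (SE 0.22, adjusted p = 0.968). Shmt2, the mitochondrial enzyme that splits serine into glycine and a one-carbon unit, was at 27.6 and 27.3 CPM in fl/fl-Sham, 25.8 and 24.9 in CKO-Sham, 27.3 and 27.9 in fl/fl-MI and 32.7 and 31.4 in CKO-MI. The CKO-MI libraries were the highest of the 8, and the log2 fold change over CKO-Sham was 0.34 (SE 0.11, adjusted p = 0.0691). In fl/fl hearts the value was 0.01 (SE 0.11, adjusted p = 0.975), and it turned negative under RLE scaling, at −0.02. Without fl/fl-MI replicate 1 or fl/fl-MI replicate 2 the CKO value passed, with adjusted p of 0.0401 and 0.0335, in fits that called 41.0% and 41.3% of all tested genes. The difference between the genotypes' effects was 0.33 (SE 0.16, adjusted p = 0.611). Shmt2 overlaps Ndufa4l2 on the opposite strand.

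Within a library, the ratio of 2 members' FPKM does not depend on how libraries are scaled to each other. The ratio of Mthfd2 to Shmt2 was 0.0639 to 0.12 in sham and 0.143 to 0.337 after MI, with no overlap. The ratio of Phgdh to Psat1 was 0.628 to 0.917 in sham and 0.776 to 2.46 in MI, where CKO-MI replicate 2 fell within the sham range. These ratios show unequal change of the paired enzymes and were not tested. How many other pairs of genes separate in this way was not counted. Of single tested genes, 20.9% had every MI library above every sham library and 19.5% every MI library below, in CPM.

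Atf4, the transcription factor at the centre of the response, was slightly higher in each MI library. Its level was 69.2 and 72.2 CPM in fl/fl-Sham, 75.2 and 71.0 in CKO-Sham, 87.8 and 78.5 in fl/fl-MI and 78.4 and 84.2 in CKO-MI. The groups did not overlap, but the difference was small, with a log2 fold change of 0.19 (SE 0.09, adjusted p = 0.131). Every MI library lay above every sham library for 3 members (Atf4, Phgdh and Mthfd2), against 20.9% of tested genes. Most of its FPKM came from the 3-exon coding transcript. A transcript annotated as a retained intron made up 6.35% to 10.7% of Atf4 transcript FPKM in sham, 2.01% to 7.52% in 3 MI libraries and 15.8% in fl/fl-MI replicate 2.

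Ddit3, which encodes the pro-apoptotic factor CHOP, and Trib3, a target of ATF4 and CHOP that dampens both, did not follow Atf4 upward. Trib3 was at 6.60 and 7.26 CPM in fl/fl-Sham, 7.82 and 6.46 in CKO-Sham, 5.20 and 1.62 in fl/fl-MI and 3.50 and 4.70 in CKO-MI, so that all MI libraries were below all sham libraries. Such a separation downward held for 1 member, against 19.5% of tested genes. The log2 fold change was −0.91 (SE 0.35, adjusted p = 0.0779), which did not pass, and it was 0.12 on the log2(TPM + 1) scale, where the median of all genes was 0.92. Ddit3 was at 17.8 and 19.6 CPM in fl/fl-Sham, 17.5 and 17.2 in CKO-Sham, 19.0 and 7.62 in fl/fl-MI and 14.7 and 14.7 in CKO-MI. A log2 fold change of −0.36 (SE 0.26, adjusted p = 0.304) became 0.13 on the log2(FPKM + 1) and 0.66 on the log2(TPM + 1) scale. The medians of all tested genes on these scales were 0.41 and 0.92. Ddit3 overlaps Mars, a transfer RNA synthetase gene, and Gm4189 on the opposite strand, and the strand setting of the counting is not given in the sources used here. In GENCODE M21 it also overlaps a separate coding gene entry of the same name on the same strand.

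One library, fl/fl-MI replicate 2, held the lowest level of Ddit3, Trib3 and Atf5. The same library held the atrial genes Myl4 at 2810 and Bmp10 at 3834 CPM, against 10.2 to 12.5 and 10.3 to 12.6 in the other MI libraries. Whether the 2 traits are linked was not tested. Without it Trib3 passed at −0.61 (adjusted p = 0.0292) and Ddit3 was at −0.11 (adjusted p = 0.402), in a fit that called 50.7% of all tested genes. Without the other fl/fl-MI library, replicate 1, both genes passed, with −1.47 (adjusted p = 0.00108) for Trib3 and −0.79 (adjusted p = 0.00119) for Ddit3, where 48.5% of all tested genes were called. The ratio of Trib3 to Atf4 FPKM was 0.101 to 0.115 in sham and 0.0227 to 0.0657 in MI, and that of Ddit3 to Atf4 was 0.32 to 0.373 in sham and 0.133 to 0.298 in MI. Neither ratio overlapped between sham and MI, but the share of other gene pairs that separate in this way was not counted.

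**Figure D2:**
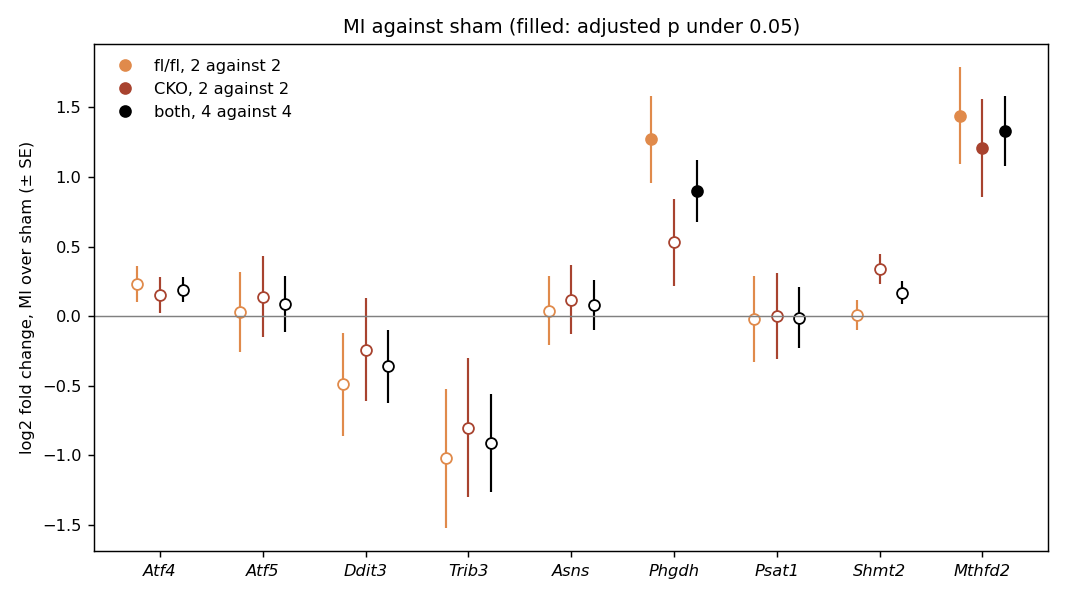
log2 fold change of MI over sham (vertical axis, ± SE) for the 9 tested members in fl/fl hearts, CKO hearts and both, with filled points for an adjusted p under 0.05. Mthfd2 is filled in all 3 comparisons and Phgdh in fl/fl hearts and over both. Ddit3 and Trib3 lie below 0 here, but on the log2(TPM + 1) scale both are positive in CKO hearts and over both genotypes. In fl/fl hearts Ddit3 is at 0.48 and Trib3 at −0.03 on that scale. The median of all tested genes over both genotypes is 0.92 there.

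Atf5, a factor that in mammals drives mitochondrial chaperone and protease genes, was at 46.5 and 49.0 CPM in fl/fl-Sham, 47.6 and 50.7 in CKO-Sham, 63.1 and 34.5 in fl/fl-MI and 45.5 and 63.1 in CKO-MI. The MI libraries lay on both sides of the tight sham range, and the log2 fold change was 0.09 (SE 0.20, adjusted p = 0.755). Atf5 overlaps Nup62 and Il4i1 on the opposite strand. Asns, which makes asparagine from aspartate and carries the C/EBP-ATF core next to its start, was at 5.75 and 5.92 CPM in fl/fl-Sham, 4.93 and 4.95 in CKO-Sham, 7.12 and 4.90 in fl/fl-MI and 4.93 and 5.83 in CKO-MI. Over both genotypes this gave a log2 fold change of 0.08 (SE 0.18, adjusted p = 0.731).

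Fgf21, the hormone secreted under mitochondrial and amino acid stress, was at the limit of detection in these hearts. The deposited counts were 6 and 16 in fl/fl-Sham, 0 and 12 in CKO-Sham, 0 and 0 in fl/fl-MI and 4 and 0 in CKO-MI. The counts rise in steps of about 4 per read pair, so that these values stand for very few pairs. A count of 0 allows a level of up to 0.113 to 0.205 CPM, the equivalent of 3 read pairs in each library, and covers counting error only. Since 7 of the 8 libraries were at or under that limit, no fold is given. Its core motif in the promoter was shown above. Of its receptors, Fgfr1 was at 45.0 ± 4.08 CPM in sham and 109 ± 20.2 in MI (SD, n = 4 each; log2 1.26, SE 0.14, adjusted p = 0.00108), whereas Klb, the co-receptor that FGF21 needs, was at 0.354 ± 0.112 and 0.348 ± 0.227 CPM and was not tested.

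The scale of the FPKM and TPM values moved as a whole between sham and MI, while the median on the TMM scale was 0.03. The TMM factors were 0.797 to 0.855 in sham and 1.119 to 1.317 in MI. Genes encoded in mitochondrial DNA took 43.1% to 46.4% and 19.9% to 24.2% of the counts. Their part in the shift was not tested. On the log2(FPKM + 1) and log2(TPM + 1) scales the median of all tested genes was higher in MI by 0.41 and 0.92, and limma then called 5 and 7 of the 9 members, beside 56.1% and 78.6% of all tested genes. RLE and upper quartile scaling kept the edgeR count at 2, and DESeq2 called 3 of the 9 members, beside 46.2% of all tested genes. Relative to that median, Mthfd2 was at 0.66 and 0.75 and Phgdh at 0.55 and 0.61, and on the TMM scale they were at 1.29 and 0.87. Trib3 was below the median on the same 3 scales, by −0.69, −0.80 and −0.94, and so was Ddit3, by −0.28, −0.25 and −0.40.

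Cell composition moved with MI in the same libraries. Of 8 fibroblast markers, 7 were called higher (median log2 1.40), and their summed level was 1414 to 1559 CPM in sham and 2223 to 6426 in MI. All 6 endothelial markers were called lower (median −1.48), with sums of 1625 to 1760 in sham and 506 to 730 in MI. Of 7 macrophage markers, 3 were called higher, with sums of 215 to 268 in sham and 215 to 495 in MI. The 8 cardiomyocyte markers summed to 31897 to 36492 in sham and 20125 to 39139 in MI, 2 called higher and 2 lower and the rest not called. The 5 atrial genes summed to 135 to 594 CPM in sham, 2547 to 4450 in 3 MI libraries and 19857 in fl/fl-MI replicate 2. In those 3 libraries nearly all of the sum was Nppa, the natriuretic peptide gene that ventricles also express under load, at 4400, 4419 and 2520. Myl4, an atrial myosin light chain, was at 10.8 to 48.0 CPM in sham, 12.5, 12.1 and 10.2 in the same 3 libraries and 2810 in fl/fl-MI replicate 2, where Bmp10 reached 3834. In bulk tissue, fewer cells of a type and less RNA per cell cannot be told apart, and the part of these shifts in the changes of Mthfd2 and Phgdh was not tested. Mthfd2 was highest in fl/fl-MI replicate 1, the library with the largest fibroblast and macrophage sums. In fl/fl-MI replicates 1 and 2 and CKO-MI replicates 2 and 1, Mthfd2 was at 10.4, 7.52, 6.66 and 5.28 CPM. In that order Phgdh was at 10.5, 7.01, 4.21 and 6.50 CPM. The macrophage sums were 495, 449, 360 and 215 and the fibroblast sums 6426, 2223, 5443 and 3293. In sham libraries Mthfd2 was at 1.88 to 3.75 CPM, beside macrophage sums of 215 to 268. Summed over 5 smooth muscle and pericyte markers, of which 2 were called lower, levels were 1285 to 1399 in sham and 486 to 672 in MI. None of 4 tested cell cycle markers was called by edgeR (all 6 summed to 16.3 to 31.5 in sham and 24.5 to 50.3 in MI), and neither were the 2 tested of 5 hepatocyte genes, which summed to 14.5 to 79.9 over all libraries.

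The study's question concerns the genotypes after MI. With the genotypes compared after MI, edgeR called no member, and none reached an unadjusted p under 0.05. Across all 14028 genes 0.0% were called, 8.31% had an unadjusted p under 0.05, and DESeq2 called 207 genes, none of them a member. The largest differences were for Phgdh, at −0.71 (SE 0.31, adjusted p = 0.603), and Mthfd2, at −0.58 (SE 0.34, adjusted p = 0.704). Both of these enzymes were lower in each library labelled CKO-MI than in each library labelled fl/fl-MI, and Shmt2 was higher in each, at 0.22 (SE 0.11, adjusted p = 0.666). Over all genes, 15.5% were separated downward and 14.5% upward in the same way. The remaining members had log2 differences of −0.23 for Psat1, −0.16 for Asns, −0.03 for Atf4, 0.14 for Ddit3, 0.15 for Atf5 and 0.26 for Trib3.

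For several members this comparison was set by which fl/fl-MI library was kept, of which replicate 2 is the one with the high atrial genes. Without fl/fl-MI replicate 1, Ddit3 was higher in CKO-MI by 0.97 (adjusted p = 0.0153) and Trib3 by 1.36 (adjusted p = 0.0339), in a fit that called 1674 genes, or 11.9% of those tested. Without fl/fl-MI replicate 2, the same genes were at −0.37 (adjusted p = 0.407) and −0.34 (adjusted p = 0.69), where 0.192% of tested genes were called. Atf5 moved from 0.67 to −0.22 and Asns from 0.15 to −0.40 between these fits, each of which leaves a single fl/fl-MI library whose spread is taken from the other groups. Phgdh and Mthfd2 stayed negative in both, at −0.37 and −0.97 for Phgdh and −0.32 and −0.79 for Mthfd2.

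**Figure D3:**
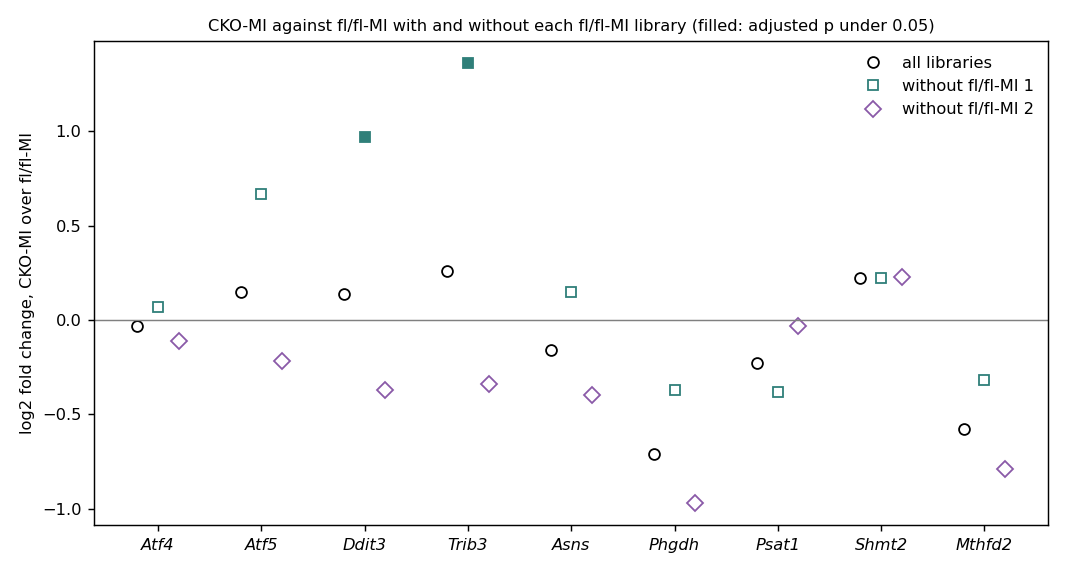
log2 fold change of CKO-MI over fl/fl-MI (vertical axis) for the 9 tested members with all libraries and without each fl/fl-MI library, filled where the adjusted p was under 0.05. Ddit3 and Trib3 stand at 0.97 and 1.36 without replicate 1 and at −0.37 and −0.34 without replicate 2, while Shmt2 stays between 0.22 and 0.23.

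In the sham hearts the genotypes gave log2 differences of −0.35 (SE 0.35) for Mthfd2 to 0.05 (SE 0.13) for Atf4, and edgeR called no member. The background there was 0.00713% of genes called and 3.89% with an unadjusted p under 0.05, and none of the 9 members was among the latter. The genotype by MI interaction called no member by edgeR either, with 0.0% of genes called and 8.49% at an unadjusted p under 0.05, of which none was a member. Without fl/fl-MI replicate 1 the interaction of Ddit3 passed at 1.07 (adjusted p = 0.0368), where 5.35% of all tested genes were called, and without fl/fl-MI replicate 2 it was −0.26 (adjusted p = 0.59).

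Other genes of the response were read from fixed lists, beside 22.0% of all genes called higher and 18.3% called lower in MI over both genotypes. Of the 18 genes for eIF2 kinases, eIF2 and its phosphatase regulators, 6 were called higher and none lower, with a median log2 fold change of 0.09. The heme-regulated kinase Eif2ak1 rose from 23.1 ± 1.58 to 34.7 ± 2.54 CPM (SD, n = 4 each; log2 0.58, SE 0.09, adjusted p = 0.00371). The endoplasmic reticulum kinase Eif2ak3 was at 0.53 (adjusted p = 0.0766) and passed without fl/fl-MI replicate 2, at 0.73 (adjusted p = 0.00207). The double-stranded RNA kinase Eif2ak2 and the amino acid sensor Eif2ak4 were at −0.13 (adjusted p = 0.49) and −0.27 (adjusted p = 0.0821). Both values turned positive on the log2(FPKM + 1) scale, at 0.34 and 0.18, where the median of all tested genes was 0.41. The eIF2 subunit Eif2s3x rose by 1.09 (SE 0.10, adjusted p = 0.000746). Ppp1r15a, which returns the phosphatase to eIF2, rose by 1.11 (SE 0.29, adjusted p = 0.0213), and its level was 105 CPM in fl/fl-MI replicate 2 against 25.7 to 44.7 in the other MI libraries. The Ppp1r15a call held in 3 of the 8 fits without 1 library (0.74, without fl/fl-MI replicate 2, to 1.33), and was lost without any 1 sham library or CKO-MI replicate 1, with adjusted p up to 0.0805. The number called in this list fell most without any 1 sham library or CKO-MI replicate 1. The share of all tested genes called fell in the same fits.

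Other targets of ATF4 and CHOP moved unequally. Of 24 tested, 10 were called higher and 1 lower, with a median of 0.52. Slc1a4, an exchanger of alanine and serine, was at 3.20 to 4.13 CPM in sham and 19.4, 4.25, 11.6 and 14.3 in fl/fl-MI replicates 1 and 2 and CKO-MI replicates 1 and 2 (log2 1.77, SE 0.43, adjusted p = 0.0169). Gdf15, a secreted stress hormone, was at 0.79 to 2.57 CPM in sham and 38.0, 1.45, 30.3 and 16.5 in the same order (log2 3.78, SE 0.95, adjusted p = 0.0185). The Gdf15 call held in 3 of the 8 fits without 1 library (log2 1.89, without fl/fl-MI replicate 1, to 4.32), and was lost without any 1 sham library or CKO-MI replicate 1, with adjusted p up to 0.0811, and under the replicate block, at 3.46 (adjusted p = 0.0527). That of Slc1a4 also held in 3 (1.02, without fl/fl-MI replicate 1, to 2.13), and was lost without any 1 sham library or CKO-MI replicate 2, with adjusted p up to 0.0704. In fl/fl-MI replicate 2 Gdf15 was within the sham range and Slc1a4 just above it. The stress-induced factor Atf3 behaved the other way, with 4.15 to 10.4 CPM in sham and 18.0, 58.3, 21 and 10.6 in MI (log2 1.87, SE 0.39, adjusted p = 0.00999). Chac1, which degrades glutathione, was at 1.84 to 2.20 CPM in sham and 4.25, 11.5, 2.88 and 1.74 in MI (log2 1.04, SE 0.35, adjusted p = 0.0504). Fl/fl-MI replicate 2 was thus highest for Atf3, Chac1 and Ppp1r15a and lowest among MI libraries for Gdf15, Slc1a4, Ddit3, Trib3 and Atf5. Sesn2, an inhibitor of mTORC1, rose by 0.70 (SE 0.17, adjusted p = 0.0174), a call kept in 4 of the 8 fits without 1 library. Pck2, the mitochondrial PEPCK, fell by 0.95 on the log2 scale (SE 0.22, adjusted p = 0.0151). Its value became 0.13 on the log2(TPM + 1) scale, where the median of all tested genes was 0.92. The count of 10 fell most without any 1 of the sham libraries, where the share of all tested genes called also fell.

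**Figure D4:**
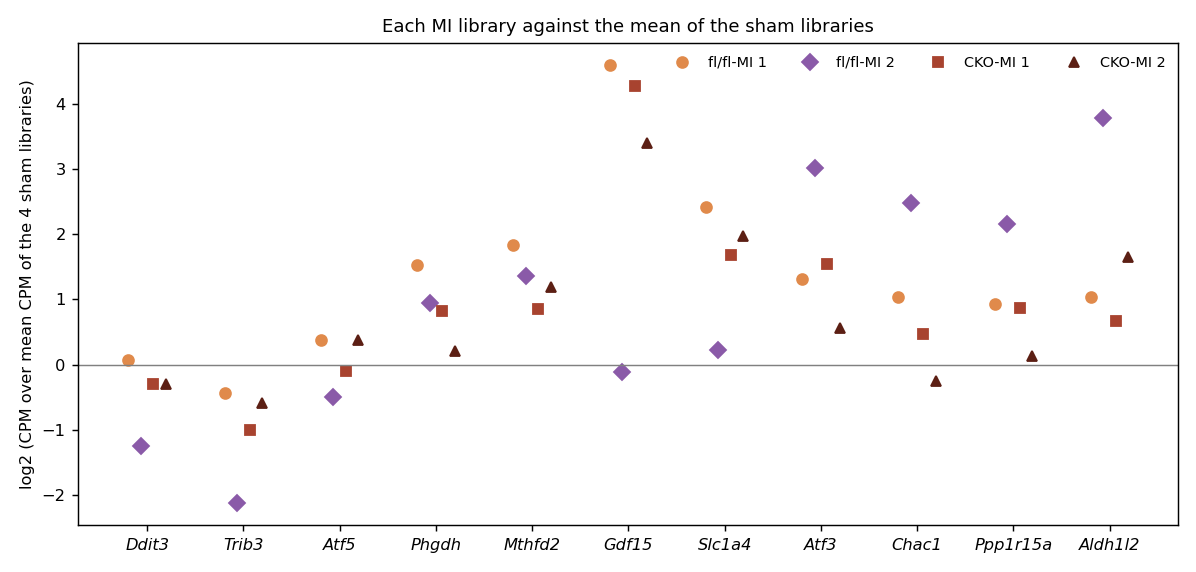
Level of each MI library relative to the mean of the 4 sham libraries (vertical axis, log2 of the CPM ratio) for 5 members and 6 related genes, chosen after their values were seen. The diamonds, fl/fl-MI replicate 2, are lowest for Ddit3, Trib3, Atf5, Gdf15 and Slc1a4 and highest for Atf3, Chac1, Ppp1r15a and Aldh1l2.

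Genes for the charging of transfer RNAs were more uniform. Of 20 cytosolic aminoacyl-tRNA synthetases, 11 were called higher and none lower, with a median of 0.35, and each rise was under 2-fold. Eprs was at 0.86 (SE 0.13, adjusted p = 0.00347), Iars at 0.82 (SE 0.10, adjusted p = 0.00159) and Aars at 0.77 (SE 0.10, adjusted p = 0.00186). Leaving out any 1 library gave 9 to 11 called. TGATGNAA was present in 3.45% of all promoters and for 1056 of 27025 genes. It was found for 3 of 13 matched synthetase genes (Aars, Gars and Tars), or 23.1% of their promoters. Of the other ATF4 and CHOP targets 7 of 22 held it, or 22.6% of their promoters. The latter list was drawn up as known targets of this response, and the synthetase list as a family. It was found for 1 of 17 serine and one-carbon enzymes, 1 of 13 eIF2 genes, 1 of 22 unfolded protein response genes, 0 of 11 mitochondrial chaperones and proteases and 0 of 5 FGF21 receptors.

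Among the other serine, glycine, proline and one-carbon enzymes, 8 of 24 were called higher and 2 lower, with a median of 0.10. The higher ones included mitochondrial enzymes that work beside Mthfd2. Aldh1l2, which oxidises formyl folate to carbon dioxide, rose by 2.17 (SE 0.58, adjusted p = 0.0237), with 44.9 CPM in fl/fl-MI replicate 2 against 5.17 to 10.2 in the other MI libraries. Mthfd1l, which releases formate from the mitochondrion, rose by 0.98 (SE 0.32, adjusted p = 0.0478). The proline enzymes Pycr1 and Aldh18a1 rose by 1.98 (SE 0.46, adjusted p = 0.0141) and 1.17 (SE 0.22, adjusted p = 0.00657). Amt, of the glycine cleavage system, fell by 1.21 on the log2 scale (SE 0.18, adjusted p = 0.00305). Sdsl, a serine dehydratase-like gene, fell by 0.55 (SE 0.18, adjusted p = 0.0433). It was at 0.02 on the log2(FPKM + 1) scale, where the median of all tested genes was 0.41. Psph, the last step of serine synthesis, was at −0.36 (adjusted p = 0.14) and the cytosolic Shmt1 at −0.57 (adjusted p = 0.0813). On the log2(TPM + 1) scale these were 0.45 and 0.36, where the median of all tested genes was 0.92. The calls of Aldh1l2, Mthfd1l and Pycr1 were each lost without any 1 of the sham libraries, and the count of 8 fell in those fits. The share of all tested genes called fell there too.

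Lists that neighbour the response were read alongside. In the ATF6 and XBP1 arms of the unfolded protein response, 20 of 25 tested genes were called higher and none lower, with a median of 0.83. The chaperone Hspa5 rose from 251 ± 19.4 to 537 ± 3.67 CPM (SD, n = 4 each; log2 1.10, SE 0.10, adjusted p = 0.000731), and Atf6 itself by 1.64 (SE 0.11, adjusted p = 0.000414). Creb3l2 and Hyou1 rose by 1.86 (SE 0.16, adjusted p = 0.000671) and 1.21 (SE 0.19, adjusted p = 0.00366), and Xbp1 by 0.55 (SE 0.14, adjusted p = 0.0216). Counts in fits without 1 library were 15 to 22. Of 14 mitochondrial chaperones and proteases, 7 were called higher and 3 lower, with a median of 0.29. Hspd1, Hspa9, Dnaja3 and Afg3l2 rose by 0.78 to 0.98 on the log2 scale, and Lonp1 was at 0.24 (adjusted p = 0.0954). Clpp, Phb and Phb2 fell by 0.61, 0.56 and 0.45. On the log2(TPM + 1) scale their values were 0.49, 0.55 and 0.67, where the median of all tested genes was 0.92. The count of 7 fell most without CKO-Sham replicate 1, where the share of all tested genes called also fell. Of 2 tested FGF21 receptors, Fgfr1 was called higher and Fgfr3 lower, at −1.24 (SE 0.19, adjusted p = 0.0036). No gene of these 7 lists was called between the genotypes, in sham or after MI, or in the interaction.

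**Figure D5:**
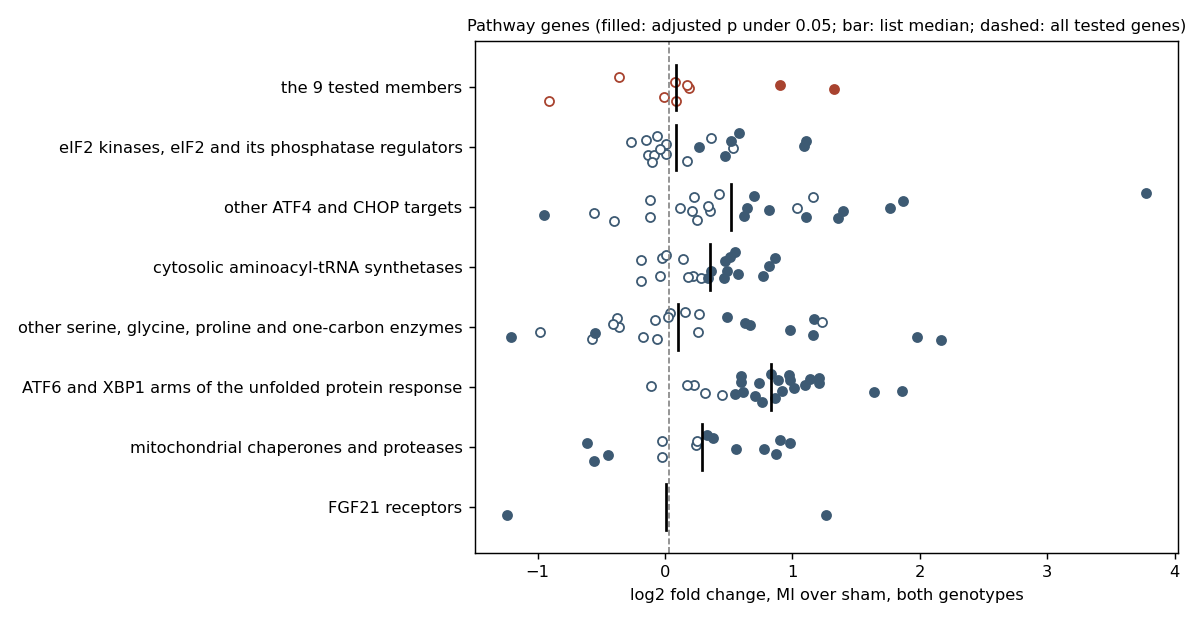
log2 fold change of MI over sham, both genotypes (horizontal axis), for the 9 tested members and each tested gene of 7 related lists, filled where the adjusted p was under 0.05, with bars for medians and a dashed line at 0.03 for all tested genes. The unfolded protein response list has the highest median, at 0.83, and the members have 2 filled points. Genes below 0 include Ddit3, Trib3, Pck2, Clpp, Phb and Phb2. These turn positive on the log2(TPM + 1) scale but stay below the median of all tested genes there, 0.92.

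No tested member had another member as its nearest profile over the 8 libraries. For each member the nearest of 14027 other tested genes was found by the root mean square difference of log2 CPM centred on each gene's mean. Atf4 was nearest to Sin3a (0.045), Atf5 to Cald1 (0.05), Ddit3 to Zfp12 (0.097), Trib3 to Marcks (0.154) and Asns to Rab11fip2 (0.051). Phgdh was nearest to Rora (0.161), Psat1 to Gda (0.098), Shmt2 to Hdhd2 (0.044) and Mthfd2 to Ptk2b (0.196). The closest pair of members, Atf4 and Shmt2, were 0.124 apart, and Phgdh and Mthfd2 were each other's nearest member at 0.437. The lowest rank of any member as a neighbour of another was 245, for Ddit3 as the neighbour of Trib3. The distance depends on the size of each gene's changes, and the rank that randomly drawn genes would reach was not computed. The ranks therefore do not tell whether the members share a profile.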

How the data were processed

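Bulk poly(A) RNA of mouse myocardium was sequenced in 8 libraries, 2 per group. The deposited gene counts were made by the authors from reads trimmed with cutadapt 1.9 and checked with FastQC, per the submitters' processing notes; the aligner, counter and strand setting are not given in the sources used here. The authors also deposited FPKM values per gene and per transcript, normalised to length and library size. Coordinates are GRCm38. Counts step by about 4 per read pair (a mean of 1106 genes per library at a count of 4 against 469 at 3), so small counts stand for fewer molecules. The authors' own fold changes and p-values were not used.

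Counts of genes that averaged 0.5 FPKM or more entered edgeR 4.0.16 (TMM scaling, quasi-likelihood F test, R 4.3.3), with 1 mean per group over all 8 libraries and Benjamini-Hochberg adjustment over 14028 genes; called means an adjusted p under 0.05. SE is the log2 fold change divided by the root of F. All adjusted p-values are from this model unless limma 3.58.1 or DESeq2 1.42.0 is named. An exact permutation test cannot go below 0.333 for 2 against 2 or 0.0286 for 4 against 4. The scripts were tested on simulated data. Tables and plots used Python 3.11.15, pandas 2.3.3, NumPy 2.4.6 and matplotlib 3.10.9.

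Members and lists were chosen with earlier results of these data known. Named are all members, 20 listed pathway genes, up to 3 called genes per list and direction with the largest change, and each member's nearest profile; Slc1a4, Aars, Atf6 and others fall under that rule, whereas the CCAAT motif and the genes of the plot by MI library were chosen after values were seen. Alternatives were other scalings, filters and tests, a replicate block and each library left out. Total counts are given with the groups, and counting intervals cover counting error only.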

Additional observations from a re-analysis of the deposited data

How the results depend on the processing

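Members called after MI over both genotypes numbered 2, and 0 with a mean FPKM of at least 5, 5 with limma on log2(FPKM + 1) or log2(FPKM + 0.1), 7 on log2(TPM + 1) and 1 at an unadjusted p under 0.05 and 2-fold; in fl/fl hearts, from 2, these were 0, 4, 4 and 7, and 0 with only the libraries compared; in CKO hearts, from 1, 0, 3, 4 and 7, and 0 with upper quartile scaling. On the 3 limma scales the share of all tested genes called was 56.1%, 56.7% and 78.6% over both genotypes, 37.5%, 38.8% and 67.0% in fl/fl hearts and 36.8%, 38.4% and 62.9% in CKO hearts. The stricter filter leaves Mthfd2 and Phgdh out. With only the libraries compared, 1.42% of all tested genes were called in fl/fl hearts, against 18.5% with all libraries in the model. The count of 0 members in that fit is therefore no result about Mthfd2 and Phgdh in particular. On log2(FPKM + 1), log2(FPKM + 0.1) and log2(TPM + 1) the list counts were 16, 16 and 18 for eIF2 genes, 16, 17 and 21 for ATF4 and CHOP targets, 20, 20 and 20 for synthetases and 11, 11 and 14 for mitochondrial chaperones, and serine and one-carbon enzymes gave 20 on log2(TPM + 1). With the 2-fold rule they were 2 (eIF2), 0 (synthetases), 4 (serine), 7 (unfolded protein response) and 0 (mitochondrial), and with a mean FPKM of at least 5, 6 (targets) and 2 (serine). On the same 3 scales the log2 fold change over both genotypes turned to 0.13, 0.13 and 0.66 for Ddit3, 0.34, 0.49 and 0.82 for Psat1 (0.05 without a filter), 0.34, 0.42 and 0.86 for Eif2ak2, 0.18, 0.28 and 0.63 for Eif2ak4, 0.11, 0.12 and 0.67 for Phb2, 0.09, 0.18 and 0.45 for Psph and 0.02, 0.03 and 0.52 for Sdsl; on log2(TPM + 1) it was 0.12 for Trib3, 0.49 for Clpp, 0.13 for Pck2, 0.55 for Phb and 0.36 for Shmt1, and Asns was -0.0 with upper quartile scaling. In CKO hearts Ddit3 was 0.29, 0.32 and 0.84 and Trib3 0.27 on log2(TPM + 1), and in fl/fl hearts Ddit3 was 0.48 there. Shmt2 in fl/fl hearts was -0.02 with RLE or DESeq2, -0.1 with upper quartile, -0.03 without mitochondrially encoded genes or with only the libraries compared and -0.06 with the stricter filter. Over both genotypes the median of all tested genes on the 3 limma scales was 0.41, 0.56 and 0.92. The cause of these shifts was not tested.

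With each library left out in turn, 1 group holds a single library. The number of members called then changed in every comparison except that of the sham groups. The share of all tested genes called changed in these fits too. The member counts, and the list counts that follow, are therefore no result about these genes as groups. List counts ranged from 2 to 7 (eIF2), 3 to 13 (targets), 9 to 11 (synthetases), 4 to 8 (serine), 15 to 22 (unfolded protein response) and 4 to 7 (mitochondrial). The log2 fold changes that changed sign ranged over both genotypes from -0.18 to 0.27 for Atf5, -0.08 to 0.21 for Asns and -0.28 to 0.14 for Psat1, and in fl/fl hearts from -1.32 to 0.02 for Ddit3 and -0.03 to 0.01 for Shmt2. Between genotypes after MI they were -0.11 to 0.07 (Atf4), -0.22 to 0.67 (Atf5), -0.37 to 0.97 (Ddit3), -0.34 to 1.36 (Trib3), -0.4 to 0.15 (Asns) and -0.69 to 0.16 (Psat1), in sham -0.8 to 0.0 (Mthfd2), and in the interaction -0.58 to 0.22 (Mthfd2), -0.26 to 1.07 (Ddit3) and -0.39 to 1.31 (Trib3). Of 31 named list genes called with all libraries, 18 were called in every such fit and 13 were lost in at least 1.

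Same-numbered libraries did not deviate together (correlations of -0.129 to 0.065), so the numbers were not taken as pairs. With the replicate block 2 members were called over both genotypes, where 36.2% of all tested genes were called. In fl/fl hearts and in CKO hearts 0 members were called, beside 12.0% and 19.1% of all tested genes. A crossed replicate block, added after seeing the data because of the -0.129 between fl/fl-MI and CKO-MI, called 0 members and 0 genes. At 2 libraries per group the SE of the members' log2 differences between genotypes after MI was 0.11 (Shmt2) to 0.5 (Trib3).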
